A study of Rattus norvegicus with 6 samples.

Results

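The genes of catecholamine synthesis and of the chromaffin granule were described in neonatal rat ovaries as a group of 10, out of 15154 named genes on the array. They were Th, Ddc, Dbh, Pnmt, Chga, Chgb, Scg2, Phox2a, Slc18a1 and Slc18a2, and each of the 10 had a probe. The genes were chosen by name and function with the LPS and saline values of these same arrays already known, so their values are given as a description, with no test, and nothing is read from the fact that they differed. Catecholamines are made from tyrosine by a chain of enzymes that begins with tyrosine hydroxylase and ends, in cells that make adrenaline, with phenylethanolamine N-methyltransferase. In chromaffin cells of the adrenal medulla, and in sympathetic neurons, the product is loaded into granules by vesicular transporters and is stored and released together with chromogranins and secretogranins. The ovary receives sympathetic nerve fibres, whereas chromaffin cells are typical of the adrenal medulla and of paraganglia.

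Female Wistar pups received LPS (lipopolysaccharide of Salmonella enterica, 0.05 mg/kg, by intraperitoneal injection) or saline on PNDs 3 and 5, and their ovaries were collected on PND 7. RNA from 3 LPS and 3 saline samples was labeled with a single dye and hybridized to 6 arrays of 1 slide. The ovaries came from 5 animals of 2 litters in each treatment, and which animals stood behind each array is not given in the sources used here, so p-values measure the spread between these samples. The LPS and saline samples shared strain, age and injection days and differed in the treatment. Whole litters were assigned to a treatment, so the samples also differed in litter and, in part, in slide row. Levels are log2 signals minus the 75th percentile of all probes on the array, so that 0 is the level of that percentile and each unit is a 2-fold step. Whether a signal was well above background was taken from the mark that the scanner software gave its spots. The probe of a list with the highest mean linear signal over the 6 arrays is named as its brightest, and brightness does not rank transcripts by amount.

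The tissue label was checked against markers of the ovary. Each of the 7 oocyte markers with a probe was well above background on every array, and their summed linear signal, in units of the 75th percentile of the array, was 17.7, 48.7 and 40.1 on LPS replicates 1, 2 and 3 and 23.9, 21.1 and 35.1 on saline replicates 1, 2 and 3. Zp3, which encodes a protein of the zona pellucida, had the brightest probe. The 10 granulosa cell markers summed to 22.1, 82.2 and 57.8 on the LPS and 40.7, 39.3 and 65.0 on the saline arrays, with the inhibin subunit gene Inha as the brightest. Ovarian markers were thus present on every array, and LPS replicate 1 had the lowest sum in both lists.

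Saline replicates 2 and 3 stood apart from the other 4 arrays. The 10 catecholamine and granule genes had a summed signal of 5.57, 3.66 and 3.16 on the LPS arrays, 5.98 on saline replicate 1, and 90.0 and 58.1 on saline replicates 2 and 3. Pnmt was the brightest of the 10 through saline replicates 2 and 3, and Th was brighter on the other 4 arrays. Without Pnmt the sums were 4.44, 2.81, 2.43, 4.79, 59.8 and 38.0 in the same order. Of the 10 genes, 4, 3 and 5 were well above background on the LPS arrays, 4 on saline replicate 1, 10 on saline replicate 2 and 9 on saline replicate 3. Saline replicate 1 was thus close to the LPS arrays in these genes, and the differences of these 10 genes between the treatments rest largely on the other saline arrays. Results are therefore also given without them, an alternative chosen after seeing the data.

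**Figure D1:**
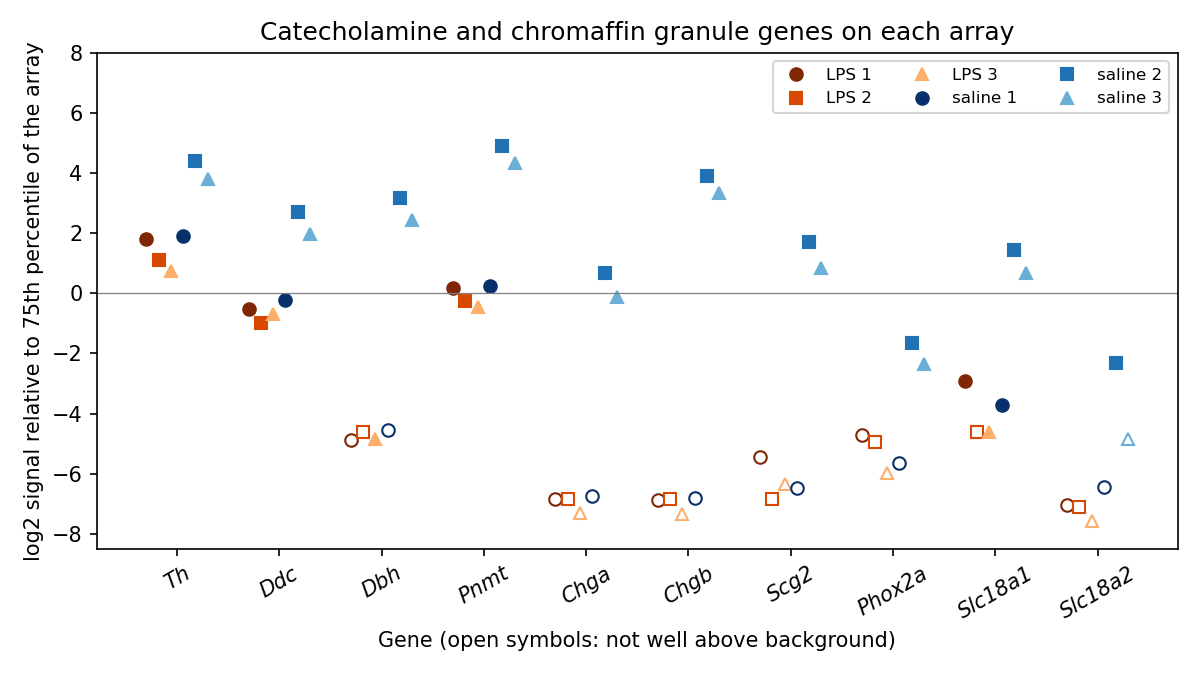
Log2 signal of each of the 10 genes on each of the 6 arrays, relative to the 75th percentile of the array, with 1 symbol for each array and open symbols where the probe was not well above background. Saline replicates 2 and 3 lie above the other arrays at every gene, with Chgb at 3.90 and 3.34 on them and between -7.33 and -6.80 elsewhere.

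Th encodes tyrosine hydroxylase, the rate-limiting enzyme of the pathway. Its level was 1.80, 1.11 and 0.76 on LPS replicates 1, 2 and 3, and 1.91, 4.40 and 3.81 on saline replicates 1, 2 and 3. The treatments did not overlap, but saline replicate 1 lay only just above LPS replicate 1, and the probe was well above background on all 6 arrays. The mean was 1.23 ± 0.53 (SD, n = 3) after LPS and 3.37 ± 1.30 (SD, n = 3) after saline, a difference of -2.15.
Ddc encodes aromatic L-amino acid decarboxylase, which turns L-DOPA into dopamine. Its brighter probe read -0.53, -0.99 and -0.70 after LPS and -0.22, 2.70 and 1.96 after saline. The same arrays were high as for Th, without overlap of the treatments, and the difference was -2.22. The other Ddc probe read -2.67, -3.37 and -3.11 on the LPS and -2.64, 0.02 and -0.67 on the saline arrays, a difference of -1.95. Both probes were measured well above background throughout and placed saline replicate 2 highest, saline replicate 3 next and saline replicate 1 next to the LPS arrays.
Dbh encodes dopamine beta-hydroxylase, the granule enzyme that makes noradrenaline. It read -4.88, -4.62 and -4.84 after LPS and -4.54, 3.19 and 2.44 after saline. It was well above background on 1 LPS array, replicate 3, and on saline replicates 2 and 3 only. The fitted difference of -5.15 sets signals near background against an average of 3 saline arrays that spread over 7.73 log2 units, and it was -4.04 with normexp and -3.43 without background correction.
Pnmt encodes the enzyme that methylates noradrenaline to adrenaline, the last step of the pathway. Its level was 0.18, -0.24 and -0.46 after LPS and 0.25, 4.92 and 4.33 after saline. It was measured on every array, and its processed signal before scaling was 3844, 3481 and 4009 after LPS, 2830 on saline replicate 1, and 139644 and 64268 on saline replicates 2 and 3. The treatments did not overlap, by a margin of saline replicate 1 over LPS replicate 1 that was small beside the range among the saline arrays.

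The loading of granules depends on the vesicular monoamine transporters. Slc18a1, which encodes the transporter typical of chromaffin and other endocrine cells (VMAT1), read -2.90, -4.60 and -4.61 on the LPS and -3.71, 1.44 and 0.67 on the saline arrays. The treatments overlapped, since saline replicate 1 lay within the LPS range, and the probe was well above background on all saline arrays and on LPS replicates 1 and 3. The difference of the means was -3.50, and -2.69 with normexp and -2.19 without background correction. Slc18a2, which encodes the neuronal form (VMAT2), read -7.04, -7.10 and -7.56 on the LPS and -6.46, -2.33 and -4.84 on the saline arrays. It was well above background on saline replicate 2 alone, and saline replicate 3, although higher than the remaining arrays, did not reach that mark. For probes that stayed near background on every array of a treatment, the fold is given as a bound. It sets the mean of the brighter treatment against the lowest level that still counted as well above background on each dim array, or against the measured level where this was higher. Where the measured level was higher on every dim array, the fold is that of the measured levels and no bound. Each bound holds only for the processed signal and for the mean over all 3 arrays of the brighter treatment. Other background settings gave smaller folds for the genes of this group, and leaving out saline replicate 2 gave smaller fitted differences. For Slc18a2 the signal was at least 2.78-fold lower on the LPS arrays, while its fitted difference was -1.13 with normexp and -0.65 without background correction.

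The granins are acidic proteins that pack the granule core and are cleaved into peptides. Chga, for chromogranin A, read -6.86, -6.83 and -7.32 after LPS and -6.74, 0.68 and -0.11 after saline. Its signal was not well above background on the LPS arrays or on saline replicate 1. The bound was at least 15.6-fold lower on the LPS arrays, with fitted differences of -3.69 under normexp and -2.26 without background correction. Its main difference of -4.94 became -7.28, -3.57 and -3.97 without saline replicates 1, 2 and 3. Chgb, for chromogranin B, read -6.88, -6.84 and -7.33 on the LPS and -6.80, 3.90 and 3.34 on the saline arrays. Its readings ranged most widely of the 10 genes, over 10.70 log2 units among the saline arrays alone. As saline replicate 1 was near background, this range and rank are not measured values. Chgb was at least 71.8-fold lower on the LPS arrays, with fitted differences of -5.12 under normexp and -4.14 without background correction. Its main difference of -7.17 became -10.64, -5.29 and -5.57 without saline replicates 1, 2 and 3. In processed signal, Chgb was between 21.3 and 35.9 on the 4 dim arrays, and 68700 and 32490 on saline replicates 2 and 3. Scg2, for secretogranin II, read -5.45, -6.86 and -6.36 on the LPS and -6.47, 1.70 and 0.83 on the saline arrays. Saline replicate 1 lay within the LPS range for Scg2, so the treatments overlapped. The bound was at least 24.0-fold lower, with fitted differences of -3.25 under normexp and -2.61 without background correction. Its main difference of -4.91 became -7.49, -3.4 and -3.84 without saline replicates 1, 2 and 3.
Phox2a, a homeodomain transcription factor needed for the noradrenergic phenotype, read -4.73, -4.93 and -5.99 on the LPS and -5.63, -1.64 and -2.35 on the saline arrays. The treatments overlapped, and the probe was well above background on saline replicates 2 and 3 alone. Every LPS array stood at its measured level, so the 4.04-fold lower signal is the fitted difference of -2.01 and no bound. This difference was smaller with normexp, at -1.12, and without background correction, at -0.76. It was -3.22, -1.23 and -1.58 without saline replicates 1, 2 and 3.

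The median difference over the 10 was -3.42, and that over all named genes was -0.03. As the genes were selected on this same contrast, nothing is read from this value. It was -2.95 with normexp and -2.23 without background correction. Less RNA per cell and fewer cells of a type cannot be told apart in RNA from a whole organ.

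The differences followed single saline arrays. Without saline replicate 1 the median over the 10 genes was -4.94, without saline replicate 2 it was -2.49 and without saline replicate 3 it was -2.87. Without both saline replicates 2 and 3 it was -0.29, with saline replicate 1 as the only saline array and dim probes at their measured signal. In that comparison the difference was -0.68 for Th, -0.52 for Ddc, -0.42 for Pnmt and -0.32 for Slc18a1, the 4 genes well above background on saline replicate 1, and no direction is read for the other 6. For Th, Ddc and Pnmt, the 3 genes well above background on all arrays, saline replicate 1 thus lay above the LPS mean by less than 1 log2 unit. By position on the slide, LPS replicate 1 shared a row with the 3 saline samples, while the other row held LPS replicates 2 and 3. With the row as a block, a fit that equals LPS replicate 1 set against the saline samples beside it, the median was -2.74. The row without a saline array gave no value.

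**Figure D2:**
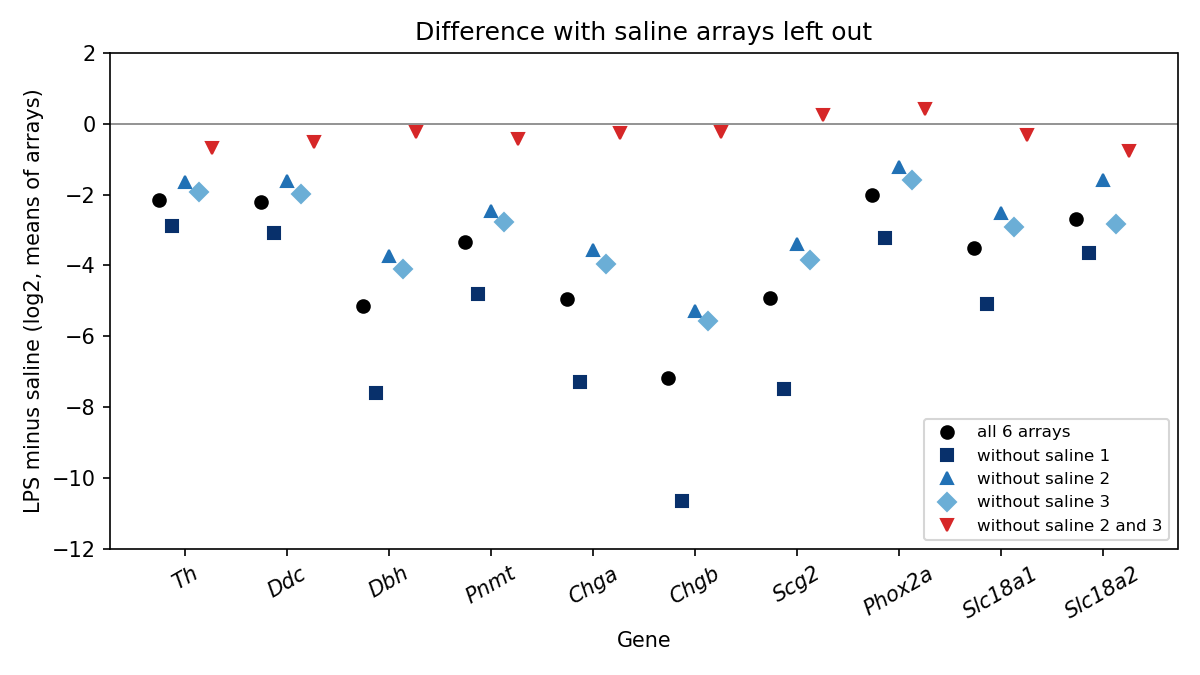
LPS minus saline difference in log2 units for each of the 10 genes, with all 6 arrays and with saline arrays left out, dim probes at their measured signal. Th lies at -2.88 without saline replicate 1 and at -0.68 without both saline replicates 2 and 3, and Pnmt at -4.80 and -0.42, while points of genes near background on all arrays compared show no direction.

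The highest arrays were the same for all 10 genes, while the order of the other 4 differed. The ratio between the high arrays was similar in 9 of the genes. On all 10, saline replicate 2 was highest and saline replicate 3 next. Among all 15154 named genes these arrays, in either order, lay above the other 4 in 2881. For 9 of the 10 genes, measured well above background on both of these arrays, saline replicate 2 exceeded saline replicate 3. The ratio lay between 1.47-fold, for Chgb, and 1.84-fold, for Scg2, with a median log2 difference of 0.74. Over the 10191 named genes well above background on both arrays, the median difference was 0.01, and 50.6% were higher on saline replicate 2. This ratio was therefore similar for enzymes, granins, Slc18a1 and Phox2a alike. Slc18a2 had a ratio of 5.71, with its signal on saline replicate 3 not well above background. Spots of the same probe lay close together, with a median range of 0.0771 log2 units where the probe was well above background and a maximum of 0.46, for Th on saline replicate 1, and 0 of the 126 spots of the 10 genes were marked as outliers.

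Other genes of the sympathoadrenal pathway were taken from 6 lists that held none of the 10 genes. Of 85 genes listed, 80 had a named probe, of which 8 were at least 2-fold lower on the LPS arrays at an unadjusted p under 0.05 and 0 were higher, compared with 1.17% lower and 0.594% higher of all named genes. After adjustment over all probes in limma 0 of the 80 passed at 0.05, and 11 had an unadjusted p under 0.05 at any fold, compared with 2366 of the 15154 named genes. The median difference of the 80 genes was -0.25, compared with -0.03 over all named genes. With probes near background on every array left out and other dim probes at their bound the medians were -0.18 and 0.02. On this basis the median was -0.88 for the granule peptide list, -0.33 for exocytosis, -0.16 for transcription factors, -0.03 for receptors and channels of secretion, -0.05 for adrenoceptors and dopamine receptors, -0.89 for nerve, -0.16 for Schwann cell, -3.06 for cortex, -0.05 for endocrine and 0.09 for kidney genes, and it did not change for the lists of cofactor and transport, oocyte and granulosa genes. The count of 8 was 10, with 1 gene higher, when the replicate number was a block, 20 without saline replicate 1, 2 without saline replicate 2, 4 without saline replicate 3, and 1 when LPS replicate 2 or LPS replicate 3 was left out. It was 5 without background correction, 4 under quantile normalization, 2 of 55 with the filter on dim probes and 0 in an unmoderated test. The share of all named genes that were lower moved as well, to 1.35% with the replicate block, 3.06%, 0.337% and 0.587% without saline replicates 1, 2 and 3, 0.442% and 0.277% without LPS replicates 2 and 3, 0.831% without background correction, 0.66% under quantile normalization, 0.999% with the filter and 0.112% in the unmoderated test. Fits with 1 array on a side decide little, because that side gives no spread. Without both saline replicates 2 and 3 such a fit had 1 gene lower and 3 higher (1.06% and 1.58% of all named genes). The fit blocked by slide row, whose difference rests on LPS replicate 1, had 0 lower and 2 higher (0.271% and 3.81%).

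Among 13 genes of the catecholamine cofactor, transport and breakdown, 1 was lower and the median was -0.09. This was Slc6a2, which encodes the noradrenaline transporter, at -1.65, -2.37 and -2.69 on the LPS and -1.93, 1.18 and -0.42 on the saline arrays. Its difference was -1.85 with a standard error of 0.75 (adjusted p = 0.294 in limma), and saline replicate 1 lay within the LPS range. It no longer met the criterion under quantile normalization, with the replicate number as a block or without any of LPS replicate 2, LPS replicate 3, saline replicate 2 or saline replicate 3. Maoa, which encodes a degrading enzyme that many cell types use, had a difference of -0.18. Gch1, which encodes the first enzyme of the tetrahydrobiopterin cofactor needed by tyrosine hydroxylase, read -3.41, -2.93 and -2.94 on the LPS and -3.51, -0.49 and -1.40 on the saline arrays, a difference of -1.29 (adjusted p = 0.458 from limma). Maoa and Gch1 are named here after their values were seen.
Among 16 genes of granule peptides and their processing, 3 were lower, with a median of -0.97. Resp18, an endocrine granule protein, read -1.27, -1.91 and -2.06 on the LPS and -1.47, 3.01 and 2.48 on the saline arrays, a difference of -3.09 with a standard error of 1.12 (adjusted p = 0.277 in limma). Vgf, a neuroendocrine peptide precursor, was near background on the LPS arrays and saline replicate 1, read -0.79 and -1.92 on saline replicates 2 and 3, and was at least 7.90-fold lower. Pcsk2, which encodes a prohormone convertase, met the criterion with a signal well above background on 0 of the 6 arrays, so no fold is given. Neuropeptide Y, the product of Npy and a peptide stored with noradrenaline, and Pcsk1n, a convertase inhibitor gene, did not pass, and are named here after their values were seen. Npy read -1.19, -1.24 and -1.45 on the LPS and -1.29, 3.02 and 0.65 on the saline arrays, and Pcsk1n read -1.08, 0.08 and -0.13 on the LPS and -0.66, 3.43 and 3.66 on the saline arrays. Both were thus high on the same arrays, Npy mainly on saline replicate 2. In the other direction, Gal, Pam, Ptprn2 and Penk of this list had differences of 1.26, 0.29, 0.16 and 0.02.
The count of 3 was 6, with 1 gene higher, when the replicate number was a block, 6 with normexp, 1 with the filter, 10 without saline replicate 1, and 1 when LPS replicate 2, LPS replicate 3, saline replicate 2 or saline replicate 3 was left out.
Among 12 genes of the exocytosis machinery, 3 were lower and the median was -0.33. These were Cplx1, which encodes a complexin, Syt4, a synaptotagmin, and Snap25, a SNARE protein of neurons and endocrine cells. All 3 were near background on every LPS array, and they were at least 2.85-, 3.15- and 2.57-fold lower. Syt4 and Snap25 were well above background on saline replicate 2 alone, where they read -2.46 and -3.35.
The count fell to 1 with the replicate number as a block or normexp, to 0 without background correction or with the filter, and to 0 when any of LPS replicate 2, LPS replicate 3, saline replicate 2 and saline replicate 3 was left out.
Among 11 sympathoadrenal transcription factor genes, 1 was lower and the median was -0.33. This was Hand1, well above background on 0 of the 6 arrays, and the count was 4 without saline replicate 1, 2 with the replicate number as a block and 0 without LPS replicate 2 or LPS replicate 3, under either other background setting, without normalization, under quantile normalization and with the filter. Of 14 receptors and channels that couple stimulation to secretion, 0 were lower or higher, with a median of -0.11. The count was 1 lower with the replicate number as a block, with normexp, and without saline replicate 1 or saline replicate 3. The largest difference among those measured well above background throughout a treatment was 0.43, for Adcyap1r1, the receptor of the peptide PACAP. Next was Gfra3, a co-receptor of the GDNF family, well above background on 0 of the saline arrays. At its measured levels it was 1.25-fold higher with LPS, which is no bound. Of 14 adrenoceptor and dopamine receptor genes, 0 were lower or higher, with a median of -0.06. Without saline replicate 3, 1 of these was lower, and without LPS replicate 1, 1 was higher. Adra2a, for an alpha-2 adrenoceptor, was measured well above background after LPS and on 0 of the saline arrays. At its measured levels it was 1.61-fold higher with LPS, which is no bound. On saline replicates 2 and 3 it read -4.25 and -4.80, so that this receptor gene was not high on the arrays where the genes of synthesis and storage were.

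Markers of the adrenal cortex moved with the 10 genes. The 17 cortex markers had a median difference of -2.77, negative for all 16 that were well above background on any array, and 7 of the 17 were at least 2-fold lower at an unadjusted p under 0.05, with 8 at an unadjusted p under 0.05 whatever the fold and 0 after adjustment in limma. Of all named genes 1.17% met the criterion as lower. Their summed signal was 14.6, 28.3 and 24.2 on the LPS arrays, 16.8 on saline replicate 1, and 425 and 520 on saline replicates 2 and 3. The brightest was Hsd3b1, an enzyme that the ovary also uses, and without it the sums were 11.1, 13.2, 12.2, 11.9, 348 and 429 in the same order. These sums still hold other genes well above background on every array, such as Cyp11a1 and Fdx1. On saline replicates 2 and 3 Cyp11a1 read 6.17 and 6.58, and Fdx1 read 5.84 and 5.89. The sums without Hsd3b1 are therefore not read as specific to the cortex. The defining markers Cyp11b1, the 11-beta-hydroxylase of corticosterone synthesis, and Akr1b7, an aldo-keto reductase, were near background on the LPS arrays and saline replicate 1. Cyp11b1 read 5.62 and 6.05 on saline replicates 2 and 3, Akr1b7 read 4.84 and 4.85, and they were at least 211-fold and at least 126-fold lower on the LPS arrays. Mc2r, the ACTH receptor, was at least 12.1-fold lower and was likewise well above background on those saline arrays alone. Cyp21a1, the 21-hydroxylase, read 0.24, -0.59 and -0.95 on the LPS and 0.03, 5.96 and 6.67 on the saline arrays. Cyp11b2, the aldosterone synthase, was well above background on LPS replicate 1 and on saline replicates 2 and 3, where it read -4.74, 1.60 and 0.90. Hsd3b2 was well above background on 0 of the 6 arrays. The part of these markers in the values of the catecholamine and granule genes was not tested. The count of 7 was 11 with the replicate number as a block, 16 without saline replicate 1, 4 without LPS replicate 1, 1 without LPS replicate 2 or without LPS replicate 3, and 0 without saline replicate 2, without saline replicate 3 or without both, and without both the median was 0.30. It was 12 with normexp, 14 without background correction, 4 under quantile normalization, 3 of 12 with the filter on dim probes, and 0 in the unmoderated test and when blocked by row.

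**Figure D3:**
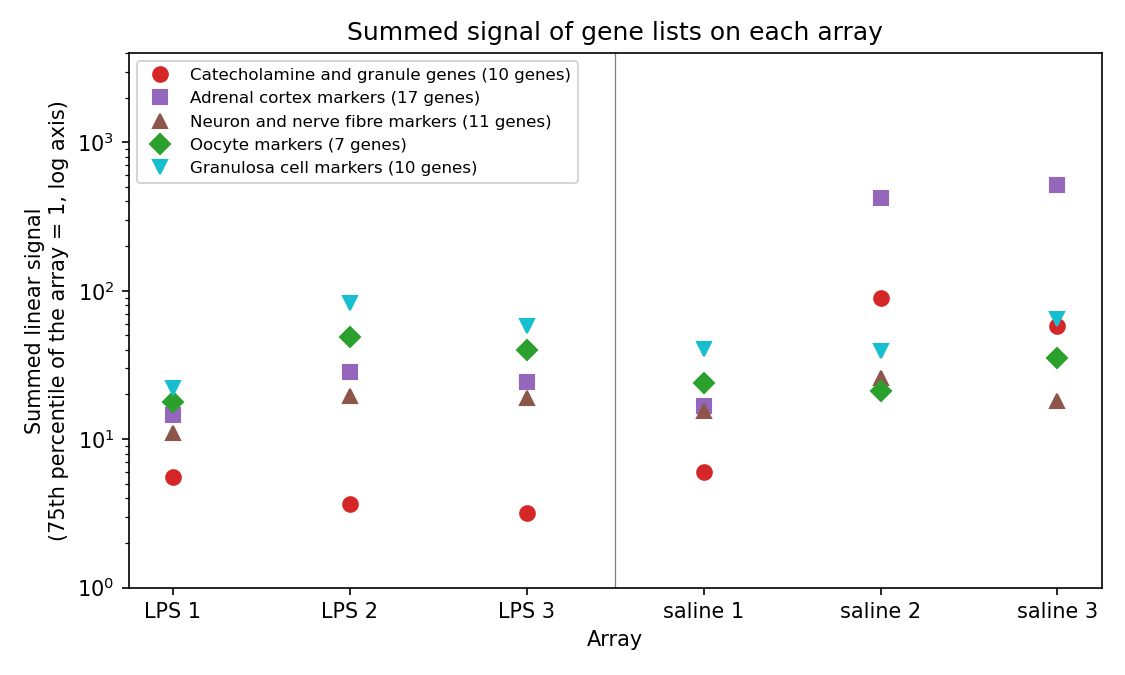
Summed linear signal of 5 gene lists on each array, on a log axis, in units of the 75th percentile of the array and with 1 probe for each gene. The catecholamine and granule genes and the adrenal cortex markers are high on saline replicates 2 and 3, at 90.0 and 58.1 and at 425 and 520, whereas the oocyte markers lie between 17.7 and 48.7 over all arrays.

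The ratio between saline replicates 2 and 3 was also taken for these lists. Of the 16 cortex markers well above background on both arrays, 6 were higher on saline replicate 2 and 10 on saline replicate 3, with a median difference of -0.10, whereas all 9 catecholamine and granule genes were higher on saline replicate 2. The difference ranged from -0.79, for Cyp11b3, to 0.69, for Cyp11b2, among the cortex markers. Of the 10 neuron and nerve fibre markers measured on both, 9 were higher on saline replicate 2, with a median of 1.98 and a maximum of 3.50, for the neuronal tubulin gene Tubb3. Of the granule peptide genes, 9 of 12 were higher on saline replicate 2, with a median of 0.62. It was 0 of 7 oocyte and 0 of 8 granulosa markers, with medians of -0.66 and -0.53. It was also 0 of 4 endocrine and 0 of 4 kidney markers. These comparisons are between single arrays and carry no error of their own.
Of 11 neuron and nerve fibre markers with a probe, 2 were lower on the LPS arrays, with a median of -0.83 and negative differences for all 10 that were well above background on any array. Stmn2, which encodes a neuronal growth-associated protein, was near background on the LPS arrays and saline replicate 1, read 1.28 and -0.91 on saline replicates 2 and 3, and was at least 15.4-fold lower. Prph, for the intermediate filament peripherin of peripheral neurons, read -0.70, -0.50 and -0.73 on the LPS and -0.17, 1.53 and 0.11 on the saline arrays, a difference of -1.13 with a standard error of 0.44 (adjusted p = 0.284 in limma). The list summed to 11.0, 19.4 and 18.9 on the LPS and 15.4, 25.8 and 18.1 on the saline arrays, with Uchl1, which oocytes also express, as the brightest gene. Without Uchl1 the sums were 1.61, 1.57 and 1.54 on the LPS and 2.17, 9.94 and 2.51 on the saline arrays. The count of 2 was 3 without saline replicate 1 and 0 without any of LPS replicate 1, LPS replicate 2, LPS replicate 3 or saline replicate 2, 1 without background correction, without normalization, under quantile normalization and with the filter, and 0 in the unmoderated test and when blocked by row. Nerve markers were therefore high mainly on saline replicate 2, and their part in the values of the 10 genes was not tested.
Of 9 Schwann and satellite glia markers, 0 were lower or higher and the median was -0.33, with sums between 2.82 and 3.72, S100b as the brightest gene, and, among genes measured well above background throughout a treatment, the largest differences -0.82 for Fabp7 and -0.46 for Sox10. Islet and gut endocrine markers, which share granule proteins with chromaffin cells, had 0 of 10 lower or higher and a median of -0.20. Kidney markers had 0 of 9 lower or higher, with a median of 0.04. The largest differences among genes measured well above background throughout a treatment were 0.42 for Ppy and -0.25 for Cck in the endocrine list and 0.58 for Lrp2 and -0.19 for Slc22a6 in the kidney list. Of the ovarian markers, 0 of 7 oocyte and 0 of 10 granulosa genes were lower or higher, with medians of 0.30 and 0.29, and the largest differences were 0.75 for Bmp15 and 0.60 for Zp2, and 0.98 for Fshr and 0.73 for Esr2. Fshr was well above background on 1 of the saline arrays and Esr2 on 2. Their differences thus rest in part on dim saline signals, at -5.85 and -5.89 on saline replicate 2. Without LPS replicate 1, 2 genes of each ovarian list were higher after LPS, and without normalization 1 oocyte and 2 granulosa genes were, settings in which 0.963% and 2.96% of all named genes were higher. In the fit blocked by slide row, 4 granulosa genes were lower and the medians were -0.55 for oocyte and -0.84 for granulosa genes.

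Genes with the pattern most like that of the 10 were sought among 783 named genes outside the group with a log2 range of at least 2 and a signal well above background on at least 2 arrays. The pattern was the mean centred level of the 9 genes of the group that met the same signal limit, all but Slc18a2. These 9 had a Pearson r with it between 0.975, for Th and Phox2a, and 0.999, for Pnmt. Each of the 9 is part of that mean, so nothing is read from their high r. The 10 most similar genes were Resp18, Oacyl, Echdc3, Tmem200a, Ubd, Tbx3, Qrfpr, Mc2r, Agxt2 and Eepd1, with r from 0.9991 to 0.9965 over 6 arrays. With 137 genes above 0.95, such values describe high signals on saline replicates 2 and 3 and little else. Tbx3, a T-box transcription factor gene well above background on all arrays, read -0.13, -0.23 and -0.22 on the LPS and -0.03, 2.00 and 1.91 on the saline arrays. Qrfpr, a neuropeptide receptor gene, was at least 11.4-fold lower on the LPS arrays and read 0.05 and -1.04 on saline replicates 2 and 3. Resp18 and Mc2r also belong to the granule peptide and the cortex lists.

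As a description of their sequence, apart from the array values, the 250 bases before the annotated start of the 10 genes were searched for short motifs in the RefSeq sequences of the GRCr8 assembly. The table held 7 of the 10, namely Th, Ddc, Dbh, Chgb, Scg2, Phox2a and Slc18a2. The cAMP response element TGACGTCA, searched on both strands, was present in 3 of the 7, Th, Scg2 and Slc18a2, and in 1.70% of the 27457 promoters of the table. Its shorter core TGACG, which the longer motif contains on each strand, was present in those 3 and in Dbh, and in 19.0% of all promoters. The motif GCGNGGGCG, bound by Egr1, was present in Th on the opposite strand and in 4.53% of all promoters. TGANTCA, the AP-1 motif, was present in Th and Ddc (6.36% of all), GGGCGG in Chgb, Phox2a and Slc18a2 (32.4%), ATTA, the core of homeodomain motifs, in Th, Ddc, Dbh and Chgb (56.3%), AGAACA in Slc18a2 (17.1%), and CAGCTG in none of the 7 (11.9%). A match of letters is a description and shows no binding. The 4 windows that hold TGACG are given because they carry the cAMP element in its full or core form, although ATTA was found in as many, with TGACG or its reverse complement in capitals, on the strand of the gene from 5′ to 3′. They lie at chr1:207508219-207508468, minus strand for Th, at chr3:30886078-30886327, plus strand for Dbh, at chr9:88256867-88257116, minus strand for Scg2, and at chr1:268399771-268400020, plus strand for Slc18a2, each ending at the base before the annotated start.
Th: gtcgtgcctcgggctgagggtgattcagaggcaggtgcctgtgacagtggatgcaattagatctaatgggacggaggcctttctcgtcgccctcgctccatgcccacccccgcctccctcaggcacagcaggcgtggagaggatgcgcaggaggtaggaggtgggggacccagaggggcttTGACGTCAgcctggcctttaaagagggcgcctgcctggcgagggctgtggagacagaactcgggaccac
Dbh: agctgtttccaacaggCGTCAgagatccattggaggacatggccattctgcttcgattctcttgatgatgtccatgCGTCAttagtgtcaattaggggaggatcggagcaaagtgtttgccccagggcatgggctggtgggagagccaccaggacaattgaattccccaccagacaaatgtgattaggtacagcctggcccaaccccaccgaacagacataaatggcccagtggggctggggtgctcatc
Scg2: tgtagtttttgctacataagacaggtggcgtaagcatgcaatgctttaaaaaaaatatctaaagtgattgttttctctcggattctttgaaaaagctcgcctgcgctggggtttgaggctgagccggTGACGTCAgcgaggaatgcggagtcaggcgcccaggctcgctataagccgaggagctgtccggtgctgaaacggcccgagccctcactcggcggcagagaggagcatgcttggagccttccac
Slc18a2: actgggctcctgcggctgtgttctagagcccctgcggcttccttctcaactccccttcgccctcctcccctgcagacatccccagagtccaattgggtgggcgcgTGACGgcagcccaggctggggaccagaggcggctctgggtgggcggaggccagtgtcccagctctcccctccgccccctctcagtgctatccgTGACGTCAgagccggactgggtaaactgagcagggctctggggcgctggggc
The full element began 69 bases before the start in Th, 123 in Scg2 and 52 in Slc18a2. Dbh held the core in reverse at 234 and 174 bases before the start, and Slc18a2 held a further core at 145. Phox2a, which had no TGACG, had the richest GC content of the 7 windows, at 72.0%, and Ddc the lowest, at 44.0%.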

How the data were processed

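Ovarian RNA was measured on 6 single-dye Agilent arrays, 3 LPS and 3 saline, grouped by the treatment in the labels. The authors deposited the spot intensity values of Agilent Feature Extraction 10.5.1.1, in which the processed signal has the background removed and very dim spots hold a surrogate, and a table of the same intensities (within 0.497%). Here the log2 processed signal minus the 75th percentile of each array was used, after removal of spots marked non-uniform or outlying and averaging of the spots of a probe. limma 3.58.1 in R 4.3.3 compared the treatments over 30367 probes with Benjamini-Hochberg adjustment. The procedure was also tested on simulated data, with no outcome given here, and no value rests on that test. The criterion was a 2-fold difference with an unadjusted p under 0.05, which 327 probes met as lower and 186 as higher. After adjustment 0 passed with all 6 arrays, both in limma and in an unmoderated test with equal variances, which for these treatments equals the analysis of variance that the methods name for the study's data, and 5018 had an unadjusted limma p under 0.05 at any fold. An exact permutation test of 3 arrays against 3 cannot give a p below 0.1.

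Symbols came from RefSeq accessions of the probes through a GRCr8 table, which named 17998 probes for 15154 genes, and the brightest probe stood for a gene. The genes and lists were chosen with earlier results of these data known. The text names every gene of the group, up to 5 genes of each list past the criterion or otherwise the 2 with the largest difference among those well above background throughout a treatment, and the 10 with the most similar pattern. The 6 pathway lists were catecholamine cofactor, transport and breakdown, granule peptides and processing, exocytosis, sympathoadrenal transcription factors, receptors and channels of secretion, and adrenoceptors and dopamine receptors. The 7 marker lists were neuron, Schwann cell, adrenal cortex, islet and gut endocrine, kidney, oocyte and granulosa cell. Listed genes without a named probe, 17 in all, were not analysed here, and some listed genes count in the totals but are not reported here by name. Replicate numbers were taken to pair the arrays, because the deviations of same-numbered arrays from their treatment means correlated at 0.298, 0.215 and 0.254 over the probes, which is the sole basis of the pairing. It is a weak one, since pairs with different numbers reached 0.16 (LPS 2 with saline 3) and 0.0678 (LPS 3 with saline 2). The alternatives were 20 in number and covered background, scaling, dim and outlying spots, probe, test, slide row, replicate number and left-out arrays.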

Additional observations from a re-analysis of the deposited data

How the results depend on the processing

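The median difference of the 10 catecholamine and granule genes was -3.42. Under 17 of 18 alternatives it moved by less than the SD of the per-array median level within a treatment, a wide margin of 2.84 because the saline arrays differed. It was -2.95 with normexp and -2.23 without background correction, where Chga moved from -4.94 to -2.26, and leaving out single arrays gave values from -4.94 to -2.49. Without both saline replicates 2 and 3, an alternative chosen after seeing the data, it was -0.29. In that comparison Scg2 stood at 0.25 and Phox2a at 0.41, but both were near background on all 4 arrays compared, so no direction is read from them. With the filter on dim probes 6 of the 10 genes had no value, and the median of the other 4 was -2.78. The count of other sympathoadrenal genes that were lower, 8, was 5 without background correction, 4 under quantile normalization, 2 with the filter on dim probes, 0 in the unmoderated test and in the fit blocked by slide row (2 higher), 1 without both saline arrays (3 higher), and from 1 to 20 when single arrays were left out. The total of 513 changed probes was 282 with normexp and 211 without background correction, 1230 without normalization, 291 under quantile normalization, 312 with the filter, 148 in the unmoderated test, 1555 when blocked by slide row, 1000 without both saline arrays, and from 250 to 1131 when single arrays were left out, 250 without saline replicate 2 and 1131 without saline replicate 1. It was also 908 without LPS replicate 1 and 262 without LPS replicate 3. In the fit without both saline arrays the saline side is 1 array, and the difference blocked by slide row rests on 1 LPS array, so these counts are not comparable with the 513. After adjustment 0 probes passed with all arrays, while 282 lower and 8 higher passed without saline replicate 1 and 5 higher passed when blocked by slide row. The cause of these changes was not tested. Higher probes made up 36.3% of the changed ones, and 81.5% without normalization (1003 higher and 227 lower), 0.709% with normexp (2 and 280), 0.0% without background correction (0 and 211), 67.6% in the unmoderated test (100 and 48) and 95.8% by slide row (1489 and 66). Leaving out the normalization moved the median over all probes from -0.04 to 0.34. The 10 genes had negative differences under every scaling and background setting. With the replicate block for the pairing the median of the 10 was -3.42, the count of other sympathoadrenal genes was 10 and that of changed probes 628. Slc6a2 no longer met the criterion in that fit. The counts of granule peptide genes (6), exocytosis genes (1), transcription factor genes (2), receptors and channels of secretion (1) and cortex markers (11) moved as given above. Signals near background limit the values of Dbh, Chga, Chgb, Scg2, Phox2a, Slc18a1 and Slc18a2, whose fitted differences on dim arrays follow the background correction, and with 3 arrays for each treatment the precision of all values is limited.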
